A study of Homo sapiens with 2 samples.

Results

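The genes described here are 33 regulators of the cell cycle: D-, E-, A- and B-type cyclins, cyclin-dependent kinases, kinase inhibitors of the CIP/KIP and INK4 families, E2F factors, the pocket proteins RBL1 and RBL2, checkpoint genes and replication genes. They were chosen by name, with earlier results of these data known. All 33 were found among 20037 protein-coding genes of a RefSeq table on hg38. The study asked where GFI1, a transcriptional repressor of blood cells with zinc fingers, sat on the genome of NB4 cells. NB4 is an established human line of acute promyelocytic leukemia with the PML-RARA fusion. Untreated, formaldehyde-fixed cells were used for chromatin immunoprecipitation and sequencing, with 1 library for each of 2 antibodies to different parts of GFI1, called ab21061 and sc8558 after their catalogue numbers. There were no replicates, so every count below describes these 2 libraries and there is no test between them. The labels are not of a piece: the immunoprecipitation protocol names antibodies to PML/RARα, and 1 sample title (for sc8558) says GFI2, but both antibody labels say GFI1 and were followed.

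Cells pass from rest into DNA synthesis when D-type cyclins with CDK4 or CDK6, and then E-type cyclins with CDK2, phosphorylate the retinoblastoma family. That releases E2F factors, which switch on replication genes such as PCNA and MCM2. CIP/KIP and INK4 proteins hold the kinases in check. In myeloid cells, leaving the cycle goes with terminal differentiation, and GFI1 is known as a restraint on the proliferation of blood stem cells and, in some cell types, as a repressor of CDKN1A.

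The ab21061 list held 7687 peaks and the sc8558 list 7562. Their authors' scores, the peak caller's own value for each peak, ran from 50.01 to 3100 with medians of 82.4 and 81.7. Scores are compared only within a list, and the percentile given with a score is the rank of that peak in its own list. Depth is unknown. Of the peaks, 63.7% and 65.0% were overlapped by a peak of the other list by at least 1 bp. Such an overlapping pair is called a shared region. A peak was counted for a gene when its midpoint lay in the gene span or within 10 kb of it, and again within 50 kb. A window can hold the ends of other genes, and these are named beside each region.

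Few cell cycle genes had a peak close by, and their share was near that of all genes. Within 10 kb, 6 of 33 genes had an ab21061 peak (18.2%, exact Clopper-Pearson 95% interval 6.98 to 35.5), where 17.4% of all protein-coding genes did. With sc8558 there were 4 (12.1%, 3.40 to 28.2), against 17.8%. A shared region lay within 10 kb of 4 genes, CCNE2, CDK2, CDK6 and CDKN1B (12.1%, 3.40 to 28.2), against 12.8%. Within 50 kb the counts were 11 genes with ab21061 (33.3%, 18.0 to 51.8) against 31.7%, and 12 with sc8558 (36.4%, 20.4 to 54.9) against 32.4%. A shared region lay within 50 kb of 11 genes (33.3%, 18.0 to 51.8), against 24.3%. Each interval included the share of all genes. The intervals cover counting error only.

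**Figure D1:**
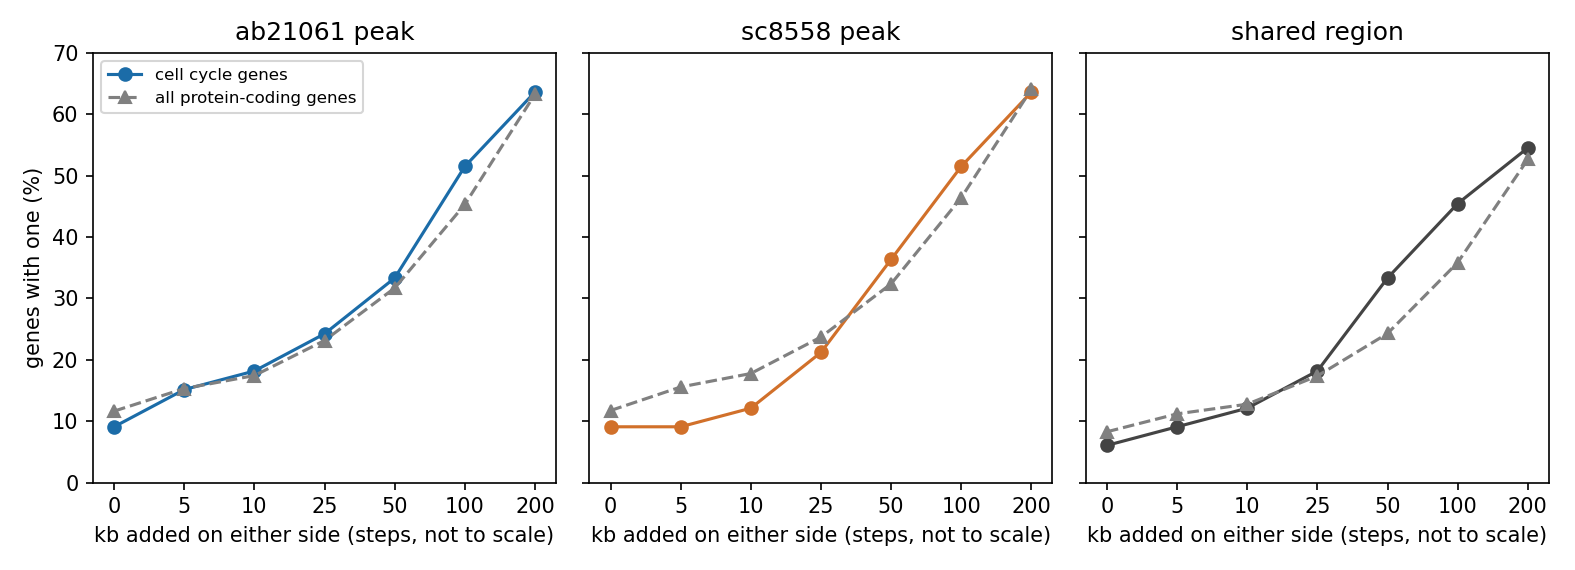
Percent of genes with an ab21061 peak, an sc8558 peak or a shared region (panels) as the window around the gene span widens from 0 to 200 kb, for the 33 cell cycle genes (solid lines) and all 20037 protein-coding genes (dashed lines). For ab21061 both lines lie close together up to 50 kb, for sc8558 the cell cycle genes lie lower up to 25 kb, and at 50 kb the shared regions stand at 33.3% and 24.3%.

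The cell cycle genes are short, with a median length of 16.5 kb against 24.1 kb for all protein-coding genes, and short genes offer a smaller window. Among the 19 members under 20 kb, 4 had an ab21061 peak within 10 kb, and 8.31% of all genes of that length did. With sc8558 3 of the 19 did, against 8.77%, and 3 had a shared region, against 6.10%. Of the 10 members between 20 and 60 kb, 1 had an ab21061 peak (16.8% of all such genes), 0 had an sc8558 peak (17.6%) and 0 a shared region (12.5%). Of the 4 members over 60 kb, CDK6 had peaks of both lists and a shared region, against 33.4%, 33.0% and 24.2%. These numbers are too small to set the length classes apart.

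Among the 25 member genes with a known start, no start lay under a peak. The RefSeq promoter table held 25 of the 33 genes (CCND1, CCND2, CCNE2, CDK2, CDKN1C, E2F5, E2F8 and WEE1 were not matched), and 0 of the 25 promoter windows, from 250 bases before to 50 after the gene start, were touched by a peak of either list. Among 15843 protein-coding genes in the table, 2.08% were touched by ab21061, 2.19% by sc8558 and 1.51% by both. With so low a share over all genes, 0 of 25 is not a result about the members. In 2 of the shared regions within 50 kb of a member, the promoter of a neighbour held in that table lay under the peaks. These were TIGAR beside CCND2, and ID3 beside E2F2.

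Promoter sequences are shown for these neighbours, for CDKN1B and E2F2, which had the peaks nearest to their own start among the members with an entry, and for CCNC, another cell cycle gene whose promoter lay under peaks of both lists. Each is the 250 bases before the gene start from RefSeq on GRCh38.p14, 5′ to 3′ on the strand of the gene. Capitals mark AATC or its reverse complement GATT, the core of the known GFI1 site, and TTTGGCGC or GCGCCAAA, a common form of the E2F site. An AATC can share bases with CCAAT.
TIGAR, chr12:4320963-4321212, plus strand: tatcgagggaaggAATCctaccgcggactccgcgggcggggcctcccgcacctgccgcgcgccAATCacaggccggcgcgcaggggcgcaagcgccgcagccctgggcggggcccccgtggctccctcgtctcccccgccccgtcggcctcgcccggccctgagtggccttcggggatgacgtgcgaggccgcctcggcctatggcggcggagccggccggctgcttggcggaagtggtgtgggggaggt
ID3, chr1:23559502-23559751, minus strand: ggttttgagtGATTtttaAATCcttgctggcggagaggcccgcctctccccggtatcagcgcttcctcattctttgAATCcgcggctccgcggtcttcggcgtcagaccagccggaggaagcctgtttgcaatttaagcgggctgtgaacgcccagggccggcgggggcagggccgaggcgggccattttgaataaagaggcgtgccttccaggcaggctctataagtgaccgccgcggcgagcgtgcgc
CDKN1B, chr12:12717118-12717367, plus strand: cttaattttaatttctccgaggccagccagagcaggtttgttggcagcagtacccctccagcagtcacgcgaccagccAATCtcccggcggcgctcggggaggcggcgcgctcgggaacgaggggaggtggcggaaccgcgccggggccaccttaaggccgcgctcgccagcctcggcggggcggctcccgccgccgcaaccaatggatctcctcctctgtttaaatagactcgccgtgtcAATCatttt
E2F2, chr1:23531234-23531483, minus strand: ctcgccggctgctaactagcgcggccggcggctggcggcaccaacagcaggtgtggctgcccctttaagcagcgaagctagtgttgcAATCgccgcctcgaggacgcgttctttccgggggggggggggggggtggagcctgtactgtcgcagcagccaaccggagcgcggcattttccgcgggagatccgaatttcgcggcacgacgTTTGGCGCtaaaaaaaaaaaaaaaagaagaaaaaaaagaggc
CCNC, chr6:99568815-99569064, minus strand: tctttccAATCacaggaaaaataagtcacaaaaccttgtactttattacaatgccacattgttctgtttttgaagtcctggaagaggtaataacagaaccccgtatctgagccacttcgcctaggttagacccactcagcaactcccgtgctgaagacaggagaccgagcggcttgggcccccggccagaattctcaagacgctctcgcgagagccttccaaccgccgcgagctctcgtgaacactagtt

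The TIGAR stretch held AATC or GATT 2 times, ID3 3 times, CDKN1B 2 times, and E2F2 and CCNC 1 time each. This core is short and common: it was in 16 of the 25 member promoters (64.0%) and in 61.8% of all 15843. The longer AAATCA (or TGATTT) was in 2 member promoters, CDKN2D and RBL2 (8.0% against 8.56%), and in that of ID3, and TAAATCAC (or GTGATTTA) was in 0 of 25 (0.379% of all). A match is a description of the letters and not a binding site.

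Among the cyclins, CCND2 and CCNE2 had shared regions within 50 kb, 1 of the 3 D-type genes and 1 of the 4 others. Of all genes 24.3% had one, and these are too few genes to set a family apart. CCND2 encodes cyclin D2, a partner of CDK4 and CDK6 that responds to growth signals. The shared region beyond it, chr12:4320166-4322078, scored 995.41 with ab21061 (percentile 99.4) and 1100.43 with sc8558 (percentile 99.6). These were the highest scores at any member in both lists. The ab21061 midpoint lay 15.8 kb past the higher-coordinate end of CCND2 and 0.074 kb from the start of TIGAR, a p53-induced regulator of glycolysis, and the TIGAR promoter printed above lies inside both peaks. CCND2 had no other peak within 50 kb.

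CCNE2, the gene of cyclin E2, which drives entry into DNA synthesis with CDK2, had 2 shared regions within 10 kb, on chromosome 8. The first, chr8:94881408-94882094, lay inside the gene near its lower end, across the end of the overlapping gene INTS8, and scored 71.74 with ab21061 and 79.21 with sc8558 (percentiles 39.2 and 47.7). The second, chr8:94904558-94905681, lay 8.43 kb past the higher end, inside NDUFAF6, and scored 136.45 and 72.03 (percentiles 75.7 and 40.4). Each list also had a lone peak on the lower side, that of ab21061 at 33.1 kb (score 58.71) and that of sc8558 at 17.8 kb (score 62.9). CCNE2 was the member with most peaks, 3 in each list, and all but the 136.45 were below the median of their list.

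The other cyclin genes had no peak of either list within 50 kb, where 31.7% and 32.4% of all genes had an ab21061 or an sc8558 peak. CCND1 was 613 kb from the nearest ab21061 peak and 593 kb from the nearest sc8558 peak. CCND3 was 498 and 227 kb away. CCNE1 was 140 kb from either list, at a shared region (122.74 and 92.64), and CCNB1, which brings CDK1 into mitosis, was 277 kb from either list. CCNA2, the S and G2 cyclin, was 61.4 kb from an ab21061 peak and 716 kb from an sc8558 peak.

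**Figure D2:**
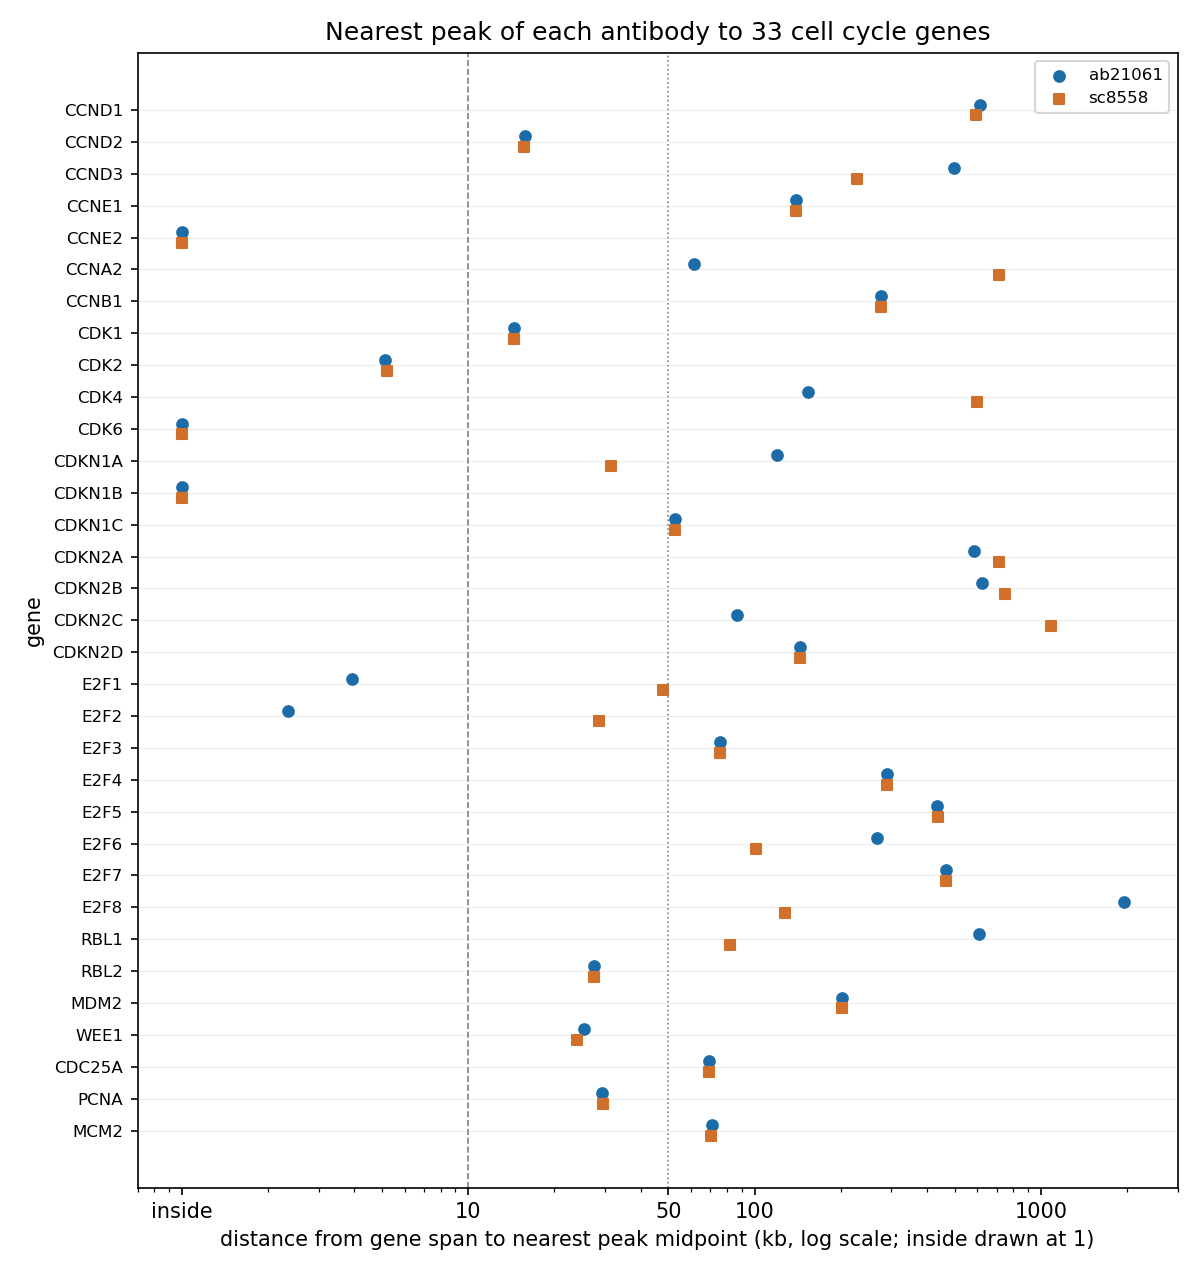
Distance in kb (log scale, peaks inside the gene drawn at 1) from the span of each of the 33 genes to the midpoint of the nearest ab21061 peak (circles) and sc8558 peak (squares), with lines at 10 and 50 kb. For most genes within 50 kb of a peak both markers fall together, as at CDK1 (14.4 and 14.5 kb), whereas E2F1 and E2F2 have an ab21061 peak within 10 kb and no sc8558 peak there.

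Of the 4 kinase genes, 3 had a shared region within 50 kb, as did 24.3% of all genes, and 4 genes are too few to set a family apart. CDK6, the largest member at 232 kb, held 2 ab21061 and 3 sc8558 peaks inside its span. The shared region chr7:92633924-92634655 scored 81.14 and 75.55 (percentiles 48.8 and 44.2), 202 kb from the start of the gene. A lone ab21061 peak (58.8) and a lone sc8558 peak (50.25) lay beside it, 0.262 and 0.026 kb from the nearest peak of the other list. The third sc8558 peak, chr7:92757133-92758035, was 79.0 kb inside the gene, scored 157.32 (percentile 81.3), and the nearest ab21061 peak was 122 kb away. It was the highest-scoring peak at any member without overlap.

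CDK2, the partner of the E- and A-type cyclins, had 1 shared region, chr12:55977451-55978548, 5.12 kb past its higher end and inside RAB5B, a gene of endosome traffic. Its scores were 78.69 and 92.34 (percentiles 46.6 and 57.7). CDK1, the mitotic kinase, had 1 shared region within 50 kb, chr10:60808933-60809669, 14.4 kb past its far end and inside no protein-coding gene. It scored 157.09 and 141.4 (percentiles 80.5 and 78.1), and CDK1 was the gene with the nearest end. CDK4 was 153 kb from the nearest ab21061 peak and 599 kb from the nearest sc8558 peak.

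Among the kinase inhibitors, CDKN1B was the member with peaks in both lists. It encodes p27, which binds and restrains cyclin E with CDK2. Inside the gene the lists did not coincide: the ab21061 peak chr12:12719172-12719746 scored 50.19, at percentile 0.60, and the sc8558 peak chr12:12720590-12721488 scored 95.83, at percentile 60.01. The 2 peaks were 0.844 kb apart, with midpoints 2.09 and 3.67 kb downstream of the gene start. A shared region, chr12:12724511-12725482, followed 2.66 kb past the gene and 0.889 kb from an end of APOLD1, with scores of 83.23 and 71.71 (percentiles 50.8 and 39.9).

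CDKN1A, which encodes p21, the p53-induced inhibitor, had 0 ab21061 peaks and 1 sc8558 peak within 50 kb. That peak, chr6:36644628-36645464, lay upstream of the gene at 31.4 kb, scored 77.08, and was 87.7 kb from any ab21061 peak. CDKN1C, which encodes p57, lay just outside the wider window: a shared region stood 52.6 kb from it with ab21061 and 52.8 kb with sc8558, with scores of 116.77 and 71.92. By the nearest shared region, the member just inside that limit was E2F1, at 47.7 kb. For the narrower window the member just inside was CDK2, at 5.12 kb, and the next outside was CDK1.

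None of the 4 INK4 genes, whose products block CDK4 and CDK6, had a peak of either list within 50 kb, where 31.7% and 32.4% of all genes had an ab21061 or an sc8558 peak, so 0 of 4 does not set them apart. CDKN2A and CDKN2B are neighbours on chromosome 9 and share their nearest peaks, 586 and 621 kb away with ab21061 and 714 and 750 kb with sc8558. CDKN2C was 86.8 kb from an ab21061 peak and 1081 kb from an sc8558 peak. CDKN2D was 144 kb from a shared region (69.69 and 60.37).

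Of the 8 E2F genes, E2F1 and E2F2 were the 2 with peaks within 50 kb. Of all genes, 31.7% had an ab21061 peak and 32.4% an sc8558 peak that near, so 2 of 8 does not set the family apart. E2F1 and E2F2 both activate replication genes, and each had an ab21061 peak just upstream of the start that sc8558 lacked. At E2F1 the ab21061 peak chr20:33689883-33690743 lay 3.93 kb upstream with a score of 75.5 (percentile 43.3), and the nearest sc8558 peak was 42.9 kb from it. At E2F2 the ab21061 peak chr1:23533254-23533896 lay 2.34 kb upstream with a score of 50.12 (percentile 0.40), close to the lowest score of the list, and the nearest sc8558 peak was 25.3 kb from it. With 1 library each, a peak that is missing from a list cannot be told apart from a peak just under that list's lowest score.

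Both genes also had a shared region farther upstream, next to another gene. The E2F2 region, chr1:23559155-23560502, lay 28.7 kb upstream and 0.402 kb from the start of ID3, which encodes an inhibitor of helix-loop-helix factors, with its promoter, printed above, inside both peaks. It scored 57.36 with ab21061 (percentile 18.6) and 100.32 with sc8558 (percentile 62.7). The E2F1 region, chr20:33733601-33734555, lay 47.7 kb upstream, inside ZNF341, and scored 95.53 and 124.32 (percentiles 59.5 and 73.3).

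The third activator, E2F3, was 75.7 and 75.6 kb from a shared region (125.32 and 64.89). The 3 repressor E2F genes had no peak within 50 kb, which most protein-coding genes also lacked: E2F4 was 290 kb from a shared region, E2F5 was 435 and 438 kb away, and E2F6 was 269 kb from an ab21061 and 101 kb from an sc8558 peak. Nor did the atypical E2F7, at 467 and 466 kb, or E2F8, at 1955 and 128 kb.

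RBL2, which encodes p130, the pocket protein of resting cells, had a high-scoring shared region, chr16:53518586-53519512. It scored 297.39 and 358.85 (percentiles 93.0 and 95.1), 27.5 kb past the far end of RBL2 and 14.7 kb beyond AKTIP, and was inside no protein-coding gene. RBL1, which encodes p107, was 606 kb from an ab21061 peak and 82.2 kb from an sc8558 peak.

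PCNA, the sliding clamp of DNA polymerase, had 2 shared regions, both inside the neighbouring gene TMEM230. The farther, chr20:5080228-5082059, was the second-highest at any member, with scores of 699.41 and 885.12 (percentiles 98.7 and 99.2), 34.1 kb past the far end of PCNA. The nearer, chr20:5085053-5086077, scored 139.03 and 116.55 (percentiles 76.5 and 70.2) at 29.4 kb. MCM2, a subunit of the replicative helicase, was 71.1 and 70.7 kb from a shared region (85.86 and 87.0).

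WEE1, the kinase that holds CDK1 inactive, had shared regions on both sides. The region chr11:9534849-9535936 lay 38.3 kb below the gene and 6.86 kb from an end of ZNF143, and scored 130.92 and 128.22 (percentiles 74.1 and 74.8). The region chr11:9614705-9616047 lay 25.4 kb above the gene, which had the nearest end, and scored 94.25 and 132.85 (percentiles 58.8 and 76.0). An sc8558 peak of 73.17, 0.063 kb from the ab21061 peak, stood beside it. CDC25A, the phosphatase that opposes WEE1, was 69.3 kb from a shared region (52.24 and 64.22), and MDM2, the ubiquitin ligase of p53, was 203 kb from another (69.24 and 67.6).

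**Figure D3:**
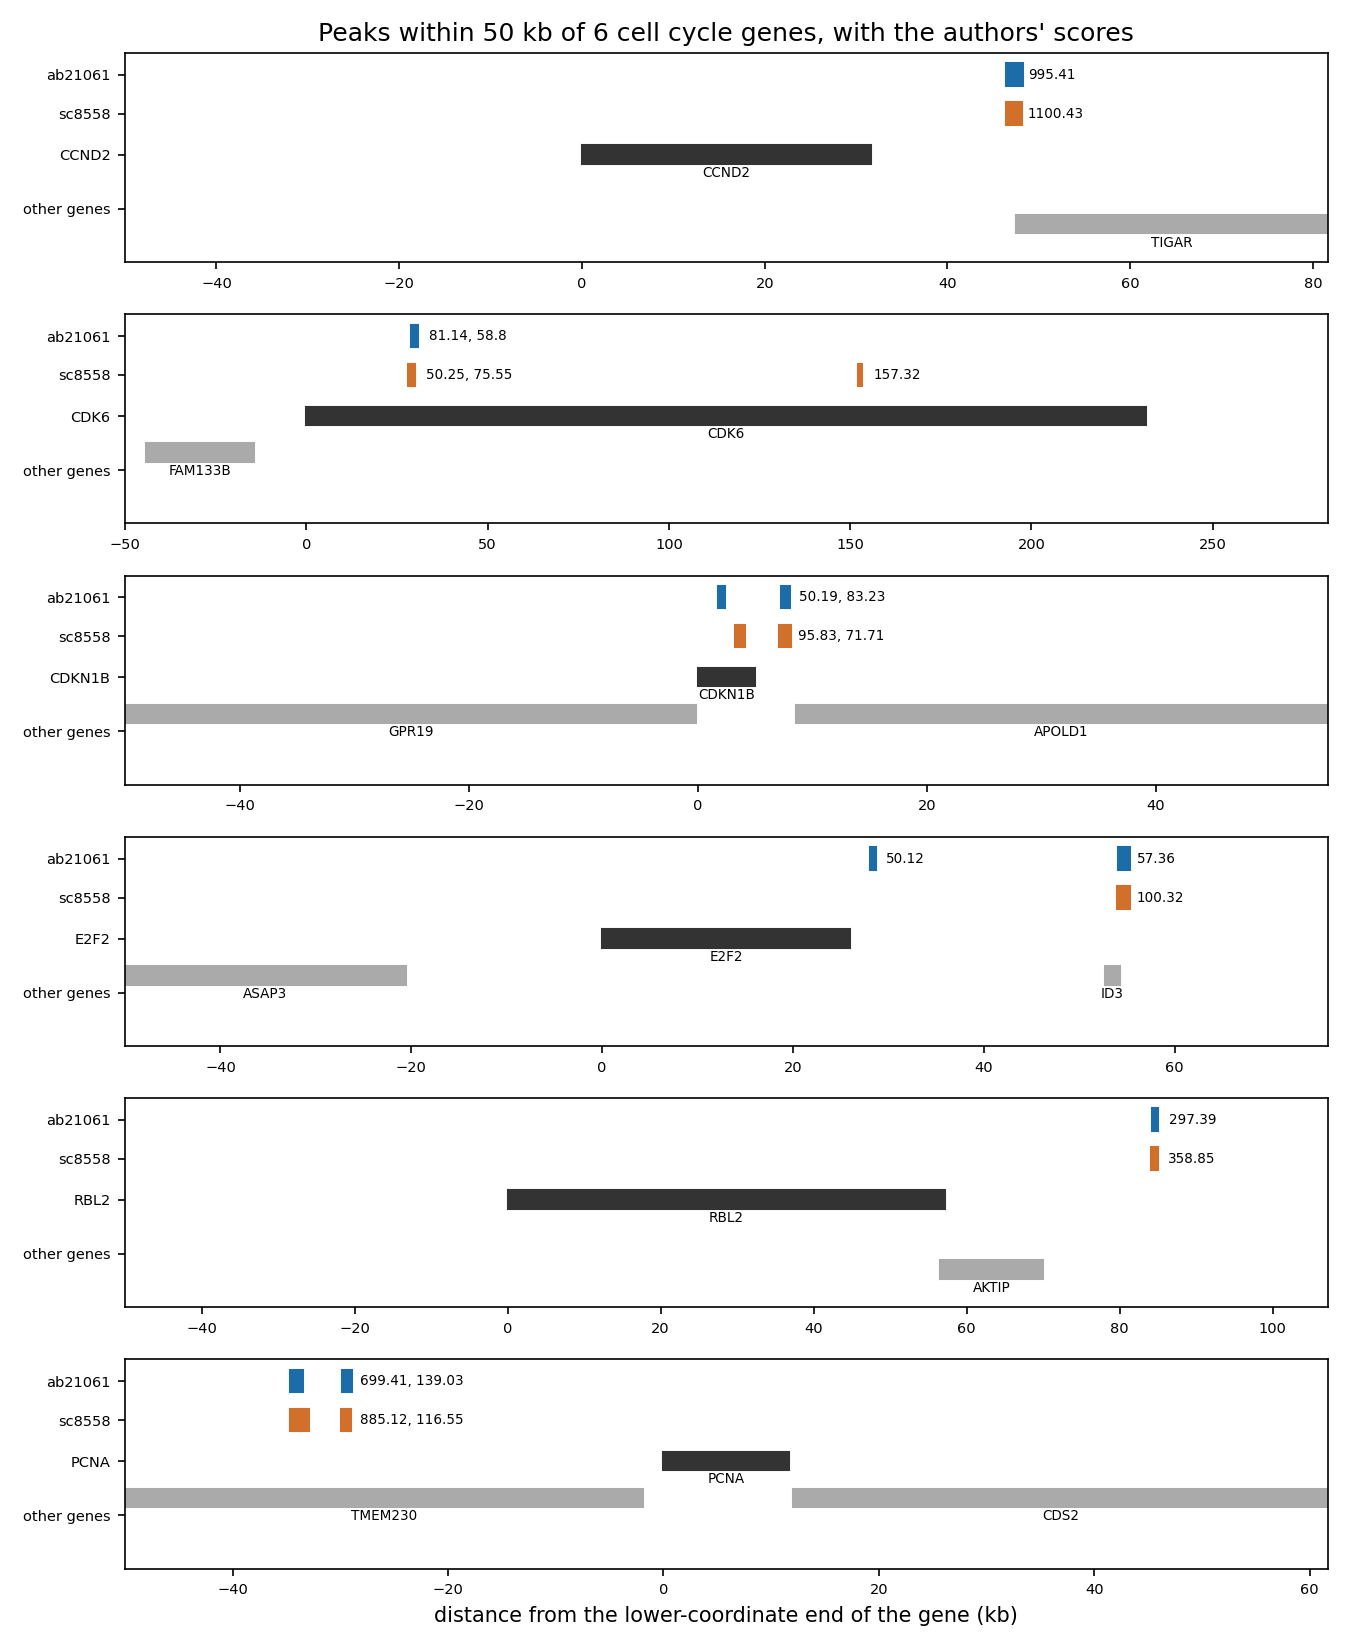
Peaks of ab21061 and sc8558 within 50 kb of CCND2, CDK6, CDKN1B, E2F2, RBL2 and PCNA, with the authors' scores in the order of the peaks, on an axis of kb from the lower-coordinate end of each gene (narrow peaks are widened to stay visible). At CCND2 (995.41 and 1100.43), RBL2 (297.39 and 358.85) and PCNA (699.41 and 885.12) the high-scoring peaks stand outside the gene, and the peaks inside CDKN1B do not overlap.

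Over all members, peaks within 10 kb had a lower median score than those from 10 to 50 kb. Within 10 kb there were 9 ab21061 peaks, with a median score of 75.5 and a range of 50.12 to 136.45, and 1 of them reached 100. Of the 8 sc8558 peaks there, with a median of 77.4 and a range of 50.25 to 157.32, 1 reached 100. Between 10 and 50 kb, 6 of 10 ab21061 peaks and 9 of 12 sc8558 peaks reached 100, with medians of 135 and 126. Over all peaks, placed by distance from the nearest protein-coding gene, the median scores were 84.0 within 10 kb and 83.4 from 10 to 50 kb with ab21061. With sc8558 they were 83.1 and 84.3. These zones are unlike those of the members, which were set by distance from the member alone. A peak 10 to 50 kb from a member can lie inside another gene, as both regions at PCNA did, so the medians are not a like-for-like background. Of all genes, 8.41% had an ab21061 peak and 8.33% an sc8558 peak of 100 or more within 10 kb, and of the members 1 each, CCNE2 and CDK6. A shared region that reached 100 with both antibodies lay within 10 kb of 0 of the 33 members (interval 0 to 10.6%), and of 6.29% of all genes, a share inside that interval. Within 50 kb 6 members had an ab21061 peak of 100 or more (16.3% of all genes) and 8 an sc8558 peak (16.5%). Such a shared region lay within 50 kb of 5, CCND2, CDK1, RBL2, WEE1 and PCNA (15.2%, 5.11 to 31.9), against 12.6%.

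**Figure D4:**
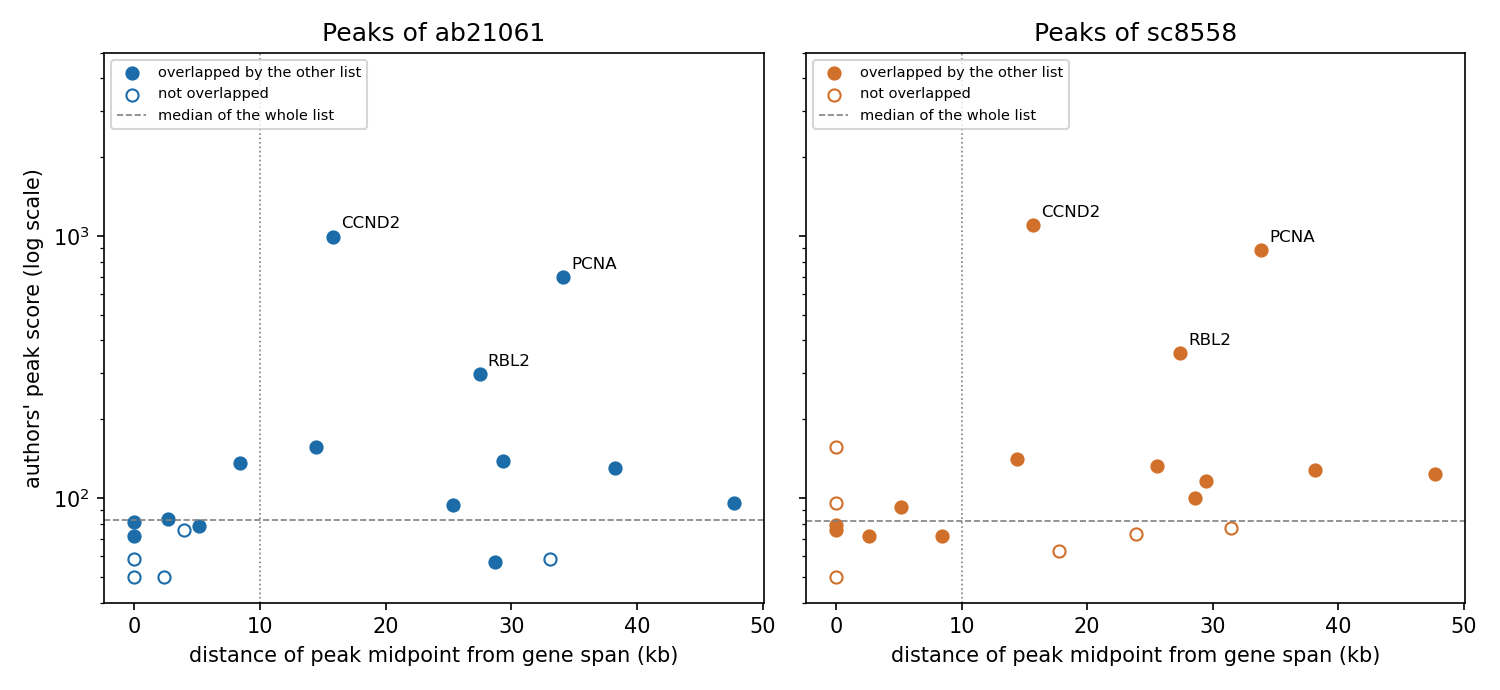
Authors' score (log scale) of each ab21061 and sc8558 peak (panels) within 50 kb of a member, against its distance in kb from the gene span; filled points are overlapped by a peak of the other list, open points are not, and the dashed line is the median of the whole list. Within 10 kb (dotted line) most points lie near or below the median, and the points above 250, at CCND2, RBL2 and PCNA, lie beyond it.

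Pairs were chosen by overlap, so their midpoints lie close by construction. Across the 14 pairs at members the midpoints differed by 20.5 to 268 bp, with a median of 75.8 bp, against 69.0 bp over all 4962 pairs of the lists. Of the 19 ab21061 peaks within 50 kb of a member 14 were shared, and of the 20 sc8558 peaks also 14, near the 65.5% and 66.0% of all peaks within 50 kb of a protein-coding gene. Within 10 kb, 5 of 9 and 5 of 8 were shared, against 65.2% and 65.7% of all peaks that close to a protein-coding gene. The sc8558 peak had the higher percentile in 9 of the 14 pairs and the ab21061 peak in 5, and over all pairs of the lists these numbers were 2447 and 2515.

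Most of these regions were nearer to an end of another gene than to an end of the member. Of the 14 pairs, 4 had the end of the member nearest among protein-coding genes (CCNE2, CDK1, CDK6 and WEE1, 1 each) and 10 had another gene. By the ab21061 midpoint, 2 lay inside the member, 6 inside another protein-coding gene and 7 inside none. The pair at the lower end of CCNE2 counted for both CCNE2 and INTS8, though its sc8558 midpoint lay inside CCNE2 alone. Counting pairs only at the nearest gene end lowered the share of all genes with one within 50 kb from 24.3% to 13.0%. The files do not say which gene, if any, a region acts on.

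For other machinery of the cycle, a list of 55 genes, also chosen with earlier results of these data known, was counted in the same way. Within 10 kb 14 had an ab21061 peak (25.5%, 14.7 to 39.0), 11 an sc8558 peak (20%, 10.4 to 32.97) and 10 a shared region (18.2%, 9.08 to 30.9), against 17.4%, 17.8% and 12.8% of all genes. All 3 intervals included the share of all genes, so these counts do not set the list apart. The median length of the 55 genes was 36.7 kb, longer than that of the members. The 5 whose pairs within 10 kb ranked highest, by the lower of the 2 percentiles, were CCNH, a subunit of the CDK-activating kinase (596.47 and 471.69), FBXW7, which marks cyclin E for destruction (220.2 and 201.61), CDC25B (191.84 and 242.65), ATM, the DNA damage kinase (236.96 and 169.98), and CCNC (128.26 and 207.77). Of the 48 of these genes with a promoter entry, 3 had the window under peaks of both lists (6.25%). Of all 15843, 1.51% did, and 3 genes are too few to set the list apart. The 3 were CCNC and, named after their values were seen, ATR (105.96 and 58.28) and CHEK2 (55.96 and 51.61). ATR and CHEK2 encode kinases of the DNA damage checkpoint. The CHEK2 peaks ranked low in their lists (percentiles 15.6 and 4.67). They also touched the promoter window of the neighbour HSCB, and their midpoints lay inside HSCB.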

How the data were processed

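Peaks of 2 chromatin immunoprecipitation libraries from NB4 cells, 1 per antibody, were analysed. The tools were Bowtie2 2.2.9 and MACS 1.4.2 and the build hg38, per the submitters' processing notes. Details of options, read filters and control were not given in the sources used here. Peak scores were made by the authors' peak caller and deposited, and were used only within a list. Peaks were listed per library. Gene spans came from a RefSeq table on GRCh38.p14, and promoter sequences and strands from RefSeq on the same build. Peaks were counted by midpoint within 10 or 50 kb of a gene span, and shares have exact Clopper-Pearson 95% intervals. Counting was tested on simulated data. The members and lists were chosen with earlier results of these data known. Genes named were all members with a peak within 10 kb or a shared region within 50 kb, and of the other list 5 genes by the lower percentile of their best pair within 10 kb; the remaining members are given by their nearest peak. Alternatives were a score of 100 or more, other windows, stricter overlap, the top 5000 peaks, and other backgrounds. Calculations ran in Python 3.11.15 (scipy 1.17.1, pandas 2.3.3, numpy 2.4.6; figures in matplotlib 3.10.9).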

Additional observations from a re-analysis of the deposited data

How the results depend on the processing

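Of 26 alternative counts of members, 17 stayed within 1.5 times the main count and 9 did not. At a score of 100 or more the counts within 10 kb were 1 gene with ab21061, 1 with sc8558 and 0 shared, and within 50 kb 6 with ab21061 and 5 shared, where fewer peaks enter by construction. With the gene span alone 3 genes had an ab21061 peak, and with 25 kb 7 had an sc8558 peak, from narrower windows. When a pair counted only for the gene with the nearest end, chosen after seeing the data, 2 genes had a shared region within 10 kb and 4 within 50 kb, where 10.3% and 13.0% of all protein-coding genes did.

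The share of all genes used as background depended on which genes entered. Over all gene types it was 11.2% (ab21061), 11.4% (sc8558) and 8.02% (shared) within 10 kb, and 25.6%, 25.8% and 19.1% within 50 kb. Over genes in the length classes of the members it was 13.9%, 14.4% and 10.2% within 10 kb, and 29.0%, 29.8% and 22.2% within 50 kb. The length classes for shared regions were added after seeing the data. No paired analysis was possible because each antibody had 1 library and no test was made. Depth is unknown, which limits any reading of a peak found in a single list.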

Other observations

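E2F and CCAAT letters were counted in the 250 bases before the start of the 25 members with a promoter entry, on both strands. TTTGGCGC (or GCGCCAAA) was in 5 of the 25, E2F1, E2F2, RBL1, MDM2 and CDC25A (20%), and in 0.732% of all 15843 protein-coding promoters. TTTCGCGC (or GCGCGAAA) was in RBL1 alone of the 25 (4.00% against 0.701%). CCAAT (or ATTGG) was in 11 of 25 (44.0% against 34.5%), and TTTGAA (or TTCAAA), a form of the cell cycle homology element, in 2, CDK1 and E2F3 (8.0% against 10.8%). These counts describe the reference sequence of genes chosen by name for their role in the cycle, and not the 2 libraries. No peak of either list touched the 25 promoters, where 2.08% (ab21061) and 2.19% (sc8558) of all promoters were touched.

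The 21 members without a peak of either list within 50 kb had their nearest ab21061 peak 52.6 to 1955 kb away, with a median of 269 kb, and their nearest sc8558 peak 52.8 to 1081 kb away, with a median of 227 kb. Over all 33 members the median distances were 86.8 and 82.2 kb, against 120 and 116 kb over all protein-coding genes. Within 100 kb 15 of 33 members had a shared region (45.5%), against 35.8% of all protein-coding genes, and within 200 kb 18 did (54.5%), against 52.7%. Within 100 kb, 51.5% of members had a peak of either single list, against 45.3% (ab21061) and 46.4% (sc8558). Within 200 kb it was 63.6% for each list, against 63.3% and 64.1%. No interval was computed for these distances and shares, so they do not set the members apart.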
